A study of Mus musculus with 9 samples.

Results

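Antimicrobial defensins and other secreted defence proteins were followed as a set of 10 genes in mouse epidermal keratinocytes: the β-defensin genes Defb1, Defb3, Defb4, Defb6 and Defb14, and Lcn2, Slpi, Camp, Chil1 and Saa3. They were chosen by name, with earlier results of these data known, from the deposited table of 55536 genes, and each name matched 1 row. The 9 mice were 8 weeks old, with 3 animals in each of the groups WT, Hmga2-/- and K5H2. Every animal received 2 doses of UVB of 20 mJ/cm2 within 3 days on telogen dorsal skin, and the epidermis was taken 24 h after the last dose by floating the skin on 0.25% trypsin. No unexposed skin was included, so each comparison is between genotypes after UVB. Which part of Hmga2 is deleted, and what the name K5H2 stands for, are not given in the sources used here.

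Skin defends itself with small secreted proteins as well as with immune cells. The β-defensins are short cationic peptides held together by disulphide bonds, which damage microbial membranes and attract immune cells. Some of them are made steadily by resting epithelium, and others are switched on by wounding, microbial products and cytokines of the interleukin-1, interleukin-17 and interleukin-22 families through NF-κB and C/EBP factors. Lcn2 binds the siderophores with which bacteria take up iron. Slpi inhibits serine proteases such as those of neutrophils. Camp is the precursor of the cathelicidin peptide, Chil1 is a chitinase-like lectin without chitinase activity, and Saa3 is an acute-phase apolipoprotein.

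The values are the authors' normalized counts, rounded to whole numbers. Approximate depth was 15.4 M reads in genes in Hmga2-/- 3 and 28.1 to 41.5 M in the other 8 libraries, so that 1 read is worth 2.34 normalized counts in Hmga2-/- 3 and 0.723 to 1.17 elsewhere. The first principal component (36.6% of the variance) set WT 1 farthest from Hmga2-/- 3. All 9 keratinocyte markers examined were tested genes, among them Krt5 at 465923 to 636557 in the 9 libraries. Others varied more, with Flg at 527 to 8295, and Lor at 25665 to 691752 and Krt10 at 329606 to 2210489, both lowest in WT 1. Together the keratinocyte markers summed to 2105483 to 3310357 in WT, 2810279 to 4742930 in Hmga2-/- and 2518187 to 2936507 in K5H2. Hmga2 was at 346, 11 and 56 in the WT animals, 3, 9 and 7 in the Hmga2-/- animals, and 4, 11 and 0 in the K5H2 animals. WT 2 was thus within 2 normalized counts of the highest Hmga2-/- animal and level with K5H2 2, and where the deletion lies relative to these reads is not given. The labels do not describe the replicates beyond separate animals of a genotype.

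The defence genes fell into 3 kinds of behaviour. Defb1 and Defb6 were abundant in every animal with overlapping groups. Chil1, Lcn2, Slpi and Defb14 had their highest value in WT 1 and lower means in both mutant groups. Defb3, Defb4, Camp and Saa3 were at or near 0 in most libraries, and they did not reach the minimum for testing of 10 normalized counts in 3 libraries. The 6 genes that did reach it are Defb1, Defb6, Defb14, Lcn2, Slpi and Chil1, and Defb14 reached it in 3 WT and 2 Hmga2-/- libraries only.

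**Figure D1:**
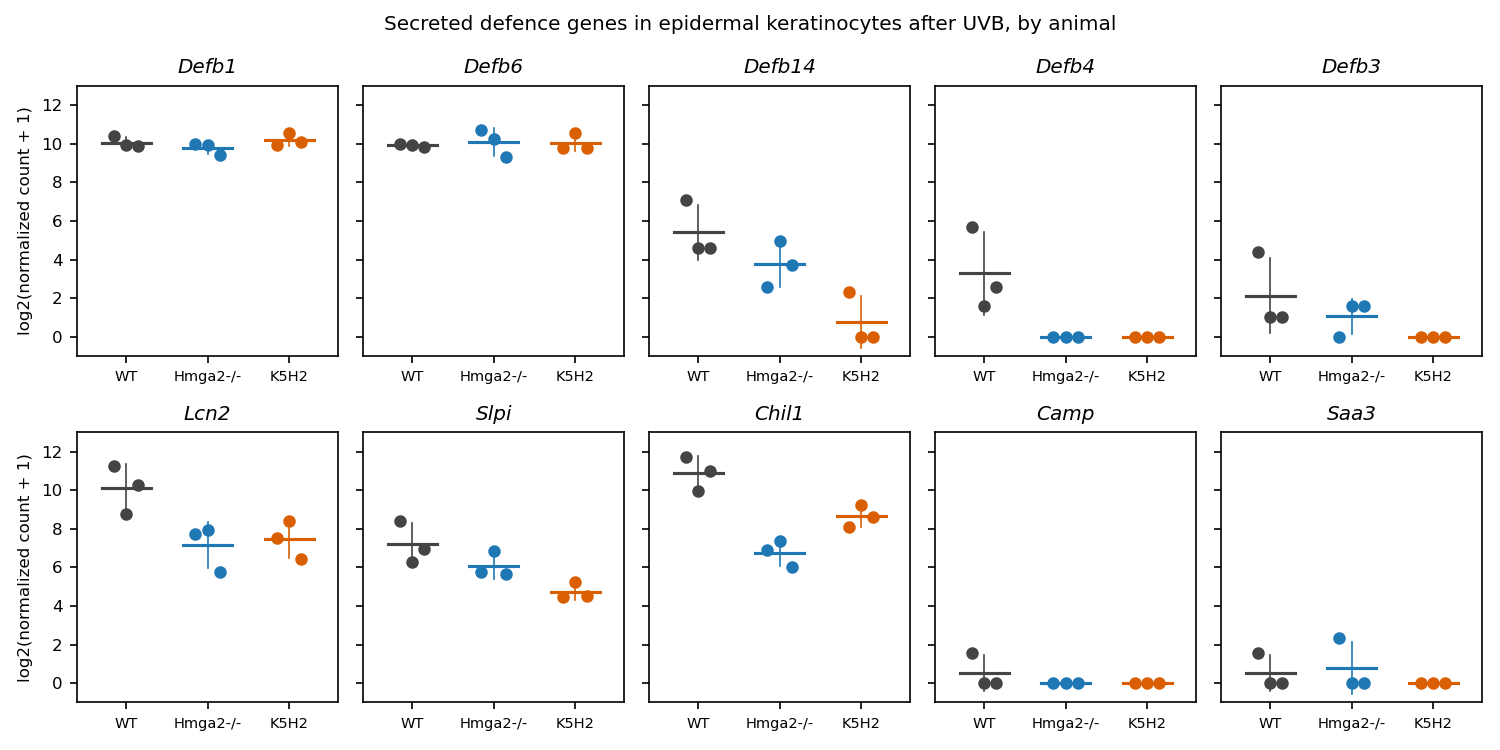
Normalized counts of the 10 defence genes on a log2(value + 1) axis, with 1 point per animal, a horizontal bar at the group mean and a vertical line of 1 SD (n = 3). Defb1 and Defb6 overlap among the groups, Chil1 and Lcn2 lie lower in both mutant groups than in WT, and Defb4 is listed at 0 in all 6 mutant animals.

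Among the β-defensins, Defb1, known as a steadily made epithelial defensin (chromosome 8, 21776599 to 21795185, GRCm38), was at 1341, 973 and 944 in the WT animals, 1019, 969 and 685 in the Hmga2-/- animals, and 982, 1523 and 1087 in the K5H2 animals. Its groups overlapped in every comparison. The log2 difference was -0.29 (SE 0.22, 95% interval -0.78 to 0.20, limma adjusted p = 0.431) for Hmga2-/- against WT and 0.13 (SE 0.22, interval -0.36 to 0.63, adjusted p = 0.783) for K5H2 against WT. Between K5H2 and Hmga2-/- it was 0.42 (SE 0.22, interval -0.07 to 0.91, adjusted p = 0.299). Defb6, a defensin of the same family (19225478 to 19228209), was at 1022, 967 and 909 in the WT animals, 1711, 1203 and 646 in the Hmga2-/- animals, and 890, 1512 and 880 in the K5H2 animals. The WT animals were close together, and the Hmga2-/- animals spread above and below them. The log2 difference of Defb6 from WT was 0.19 (SE 0.32, interval -0.52 to 0.90, adjusted p = 0.733) for Hmga2-/- and 0.13 (SE 0.32, interval -0.57 to 0.84, adjusted p = 0.856) for K5H2. Between K5H2 and Hmga2-/- it was -0.06 (SE 0.32, interval -0.76 to 0.65, adjusted p = 0.935). Those intervals hold the changes of either gene that are compatible with these values at 3 animals a group. They are no limit of detection, since a change outside an interval could still miss the adjusted threshold.

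Defb14, an inducible β-defensin with a broad antimicrobial range (19194357 to 19195212), was at 133, 23 and 23 in the WT animals, 5, 30 and 12 in the Hmga2-/- animals, and 4, 0 and 0 in the K5H2 animals. Every K5H2 animal was below every animal of the other groups, by 1 normalized count at the closest, while Hmga2-/- 2 was above 2 WT animals. It fell in K5H2 against WT, with a log2(value + 1) difference of -4.64 (SE 0.91, adjusted p = 0.0427). Hmga2-/- differed from WT by -1.67 (SE 0.91, adjusted p = 0.281), by -0.84 without WT 1 (adjusted p = 0.725) and by -2.27 without Hmga2-/- 2 (adjusted p = 0.255). K5H2 differed from Hmga2-/- by -2.97 (SE 0.91, adjusted p = 0.138), by -2.37 without Hmga2-/- 2 (adjusted p = 0.322) and by -3.75 without K5H2 1 (adjusted p = 0.129). WT 1 held 74.3% of the summed WT value, and without WT 1 the K5H2 difference was -3.81 (adjusted p = 0.117). The call was also lost without WT 3 (-5.05, adjusted p = 0.134), without Hmga2-/- 2 or Hmga2-/- 3 (-4.64, adjusted p = 0.0529 and 0.0557), and without K5H2 1, K5H2 2 or K5H2 3 (-5.41, -4.25 and -4.25, adjusted p = 0.0727, 0.103 and 0.125). With a pseudocount of 10 in place of 1 it was -2.27 (adjusted p = 0.0623), since the K5H2 values are near 0. Defb14 reads number few, and 3 reads correspond to 2.61 to 2.97 normalized counts in the K5H2 libraries. The authors' deposited table gives -5.31 for Defb14 in K5H2 against WT (adjusted p = 0.000116).

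Defb4, an inducible β-defensin (19198706 to 19201545), was at 51, 2 and 5 in the WT animals and listed at 0 in all 3 Hmga2-/- and all 3 K5H2 animals. Defb3, another inducible one (19293360 to 19295291), was at 20, 1 and 1 in the WT animals, 0, 2 and 2 in the Hmga2-/- animals, and 0 in each K5H2 animal. WT 1 carried 87.9% of the summed WT value of Defb4 and 90.9% of that of Defb3, and the other WT animals were at or below 5. For Defb4 an exact two-sided permutation test gave p = 0.1 for each mutant group against WT, the smallest that 3 against 3 animals allow. The authors' deposited table gives adjusted p values of 0.226 and 0.250 for Defb4 in Hmga2-/- and K5H2 against WT, and of 0.0763 for Defb3 in K5H2 against WT. Of 37 further β-defensin genes in the table, 29 were at 0 in every library and none was tested, with summed values of 3 to 23 per library.

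Defb14, Defb4, Defb6 and Defb3 lie within 101 kb of chromosome 8, in that order, with Defb46 and Defb5 between Defb6 and Defb3. Of these 6 protein-coding genes only Defb6 was above 100 in every library. Defb46 had 1 normalized count in K5H2 3 and was at 0 in the other libraries, and Defb5 was at 0 in each of them. The abundant gene therefore stands between neighbours at low levels or at 0. Defb6 and Defb4 transcripts are 82.4% identical over 324 aligned bases of the GENCODE M21 annotation, and Defb3 is 86.0% identical to Defb5 over 207 bases. How reads shared by such relatives were counted was not tested. Defb4 was at 0 in all 6 mutant libraries, where Defb6 was at 646 to 1711.

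**Figure D2:**
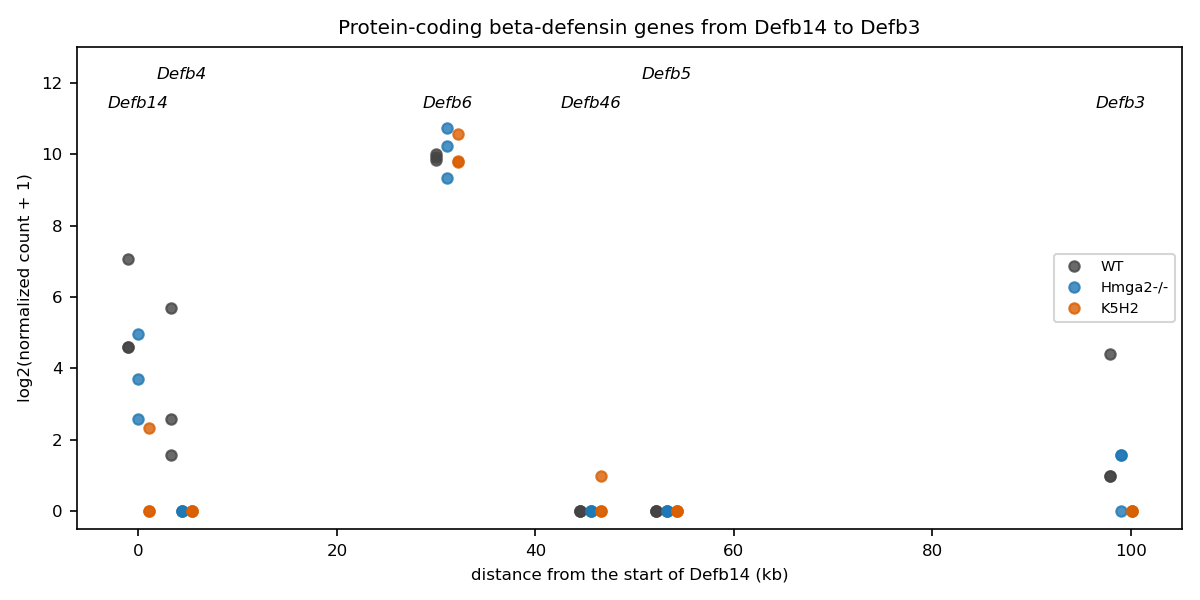
Normalized counts on a log2(value + 1) axis of the 6 protein-coding β-defensin genes, placed by distance in kb from the start of Defb14, with 1 point per animal and small sideways offsets by genotype. Defb6, 31 kb from Defb14, is high in all 9 animals, while Defb14 and Defb4 are highest in a WT animal and Defb46 and Defb5 lie at 0 or 1.

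The stretches of 250 bases upstream of the start sites of Defb6 and Defb3 are shown because these relatives differ widely in level, beside the stretch of Chil1, the member called in Hmga2-/-. They are from the RefSeq promoter table (GRCm38.p6, plus strand in all 3), which held 7 of the 10 genes. Capitals mark matches to NF-κB or C/EBP motifs. Defb6 covers chr8:19225228-19225477, Defb3 chr8:19293111-19293360 and Chil1 chr1:134181906-134182155.
Defb6: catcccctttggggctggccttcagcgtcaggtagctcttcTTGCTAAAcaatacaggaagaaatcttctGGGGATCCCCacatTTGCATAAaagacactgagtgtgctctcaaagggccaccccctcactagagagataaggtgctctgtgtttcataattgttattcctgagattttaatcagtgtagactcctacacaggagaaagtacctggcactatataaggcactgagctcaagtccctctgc
Defb3: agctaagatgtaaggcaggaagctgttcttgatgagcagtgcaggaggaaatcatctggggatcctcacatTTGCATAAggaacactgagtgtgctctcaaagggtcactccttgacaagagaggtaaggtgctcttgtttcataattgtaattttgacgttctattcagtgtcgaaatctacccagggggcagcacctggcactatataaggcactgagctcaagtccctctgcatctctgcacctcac
Chil1: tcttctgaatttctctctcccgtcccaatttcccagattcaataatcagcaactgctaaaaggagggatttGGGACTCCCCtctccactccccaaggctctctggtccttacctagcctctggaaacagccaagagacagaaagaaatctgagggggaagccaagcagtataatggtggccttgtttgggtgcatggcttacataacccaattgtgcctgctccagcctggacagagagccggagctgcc
The Defb6 and Defb3 stretches align with 192 identical bases, 81.7% of the aligned positions. Both hold the C/EBP match TTGCATAA, and Defb6 holds a further one, TTGCTAAA, and the NF-κB match GGGGATCCCC. Chil1 holds the NF-κB match GGGACTCCCC, 170 to 179 bases before the start. Searched on both strands over 32851 such stretches, the C/EBP letters TTGCNNAA were found in 9.56% and the NF-κB consensus in 7.25%. The AP-1 letters TGANTCA, found in 6.75%, were not in the stretches of the 7 genes. In Lcn2, Slpi and Saa3 the match was 1 C/EBP motif each, and no 2 matches overlapped. Of the 250 bases, 197 in Lcn2, 161 in Camp, 24 in Saa3 and 1 in Defb3 lie in annotated exons of the same gene. The start site used for Slpi, 164356507, lies inside its annotated gene, which spans 164354070 to 164389095. The AT content was 53.2% in Defb6, 52.8% in Defb3 and 48.4% in Chil1, against a median of 47.6% and a range from 30.8% to 61.2% between the 10th and 90th percentiles of all stretches.

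Of the iron-binding and protease-inhibiting genes, Lcn2 (chromosome 2, 32384633 to 32388252) was at 2479, 438 and 1220 in the WT animals, 209, 248 and 54 in the Hmga2-/- animals, and 183, 345 and 87 in the K5H2 animals. Every animal of both mutant groups was below every WT animal, with WT 2 the lowest of WT. The mean was 1379 ± 1030 in WT, 170 ± 103 in Hmga2-/- and 205 ± 130 in K5H2 (SD, n = 3). The log2 difference from WT was -2.95 (SE 0.72, adjusted p = 0.0853) in Hmga2-/- and -2.63 (SE 0.72, adjusted p = 0.0958) in K5H2, so neither passed the limma threshold of 0.05. Both depended on single animals. Without WT 1, the highest, they were -2.36 (adjusted p = 0.286) and -2.04 (adjusted p = 0.255), and without WT 2, the lowest of WT, they passed at -3.61 (adjusted p = 0.0253) and -3.29 (adjusted p = 0.0402). For Hmga2-/- the difference was -2.27 (adjusted p = 0.291) without Hmga2-/- 3 and -1.68 (adjusted p = 0.566) without WT 1 and Hmga2-/- 3 together. The authors' deposited table gives -3.01 (adjusted p = 0.0107) and -2.75 (adjusted p = 0.0226). Between K5H2 and Hmga2-/- the difference was 0.32 (SE 0.72, 95% interval -1.27 to 1.91, adjusted p = 0.820), and it turned to -0.36 (adjusted p = 0.804) without Hmga2-/- 3.

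Slpi (chromosome 2, 164354070 to 164389095) was at 345, 77 and 124 in the WT animals, 53, 115 and 49 in the Hmga2-/- animals, and 21, 37 and 22 in the K5H2 animals. The K5H2 animals were below all animals of the other groups, and Hmga2-/- 2 lay between WT 2 and WT 3. K5H2 differed from WT by -2.48 on the log2 scale (SE 0.53, adjusted p = 0.0539). Hmga2-/- differed from WT by -1.14 (SE 0.53, adjusted p = 0.221), and K5H2 from Hmga2-/- by -1.34 (SE 0.53, adjusted p = 0.196). Without WT 1, the highest animal, K5H2 differed from WT by -1.88 (adjusted p = 0.113) and Hmga2-/- by -0.54 (adjusted p = 0.640), the latter by -0.32 (adjusted p = 0.869) without Hmga2-/- 3 as well. Without WT 2 the difference of K5H2 from WT passed (-2.96, adjusted p = 0.0278). The authors' deposited table lists it at -2.78 with an adjusted p of 3.44e-05. Slpi and Defb14 thus had the same order of group means, with WT highest and K5H2 lowest.

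Chil1 (chromosome 1, 134182176 to 134190181) was at 3421, 999 and 2086 in the WT animals, 117, 163 and 65 in the Hmga2-/- animals, and 276, 606 and 398 in the K5H2 animals. The 3 groups did not overlap, with WT highest and Hmga2-/- lowest. The mean was 2169 ± 1213 in WT, 115 ± 49.0 in Hmga2-/- and 427 ± 167 in K5H2 (SD, n = 3). Chil1 was 17.7-fold lower in Hmga2-/- than in WT (log2 difference -4.15, SE 0.46, adjusted p = 0.00949). It was 4.74-fold lower in K5H2 than in WT (-2.24, SE 0.46, adjusted p = 0.0481). K5H2 was above Hmga2-/- by 1.90 (SE 0.46, 95% interval 0.88 to 2.93), which did not pass in limma (adjusted p = 0.1002). The authors' deposited table gives 1.87 for that difference, with an adjusted p of 0.00175. Against WT it lists -4.22 (adjusted p = 1.04e-18) for Hmga2-/- and -2.35 (adjusted p = 6.36e-06) for K5H2. The limma call for Hmga2-/- was lost without WT 3 (-4.09, adjusted p = 0.0643) and without WT 1 and Hmga2-/- 3 together (-3.38, adjusted p = 0.0960). The call for K5H2 lay close to the threshold and was kept in 4 of 17 alternatives, with adjusted p values of 0.0173 to 0.194 over all 17. It was lost without WT 1 (-1.83, adjusted p = 0.118), WT 3 (-2.19, 0.194), Hmga2-/- 1 (-2.24, 0.0667), Hmga2-/- 2 (-2.24, 0.0609), K5H2 1 (-1.97, 0.155), K5H2 2 (-2.53, 0.0702) or K5H2 3 (-2.23, 0.127).

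Camp, the cathelicidin gene (chromosome 9, 109847379 to 109849617), was at 2 in WT 1 and listed at 0 in the other 8 libraries. Saa3 (chromosome 7, 46711998 to 46715700) was at 2 in WT 1 and 4 in Hmga2-/- 1 and listed at 0 in the other 7. Both are near the value of single reads, and a difference between genotypes was not detectable at this depth. Saa1 and Saa2, relatives of Saa3 with transcripts 81.3% and 80.0% identical to it over 284 and 285 bases, were at 18 and 7 in WT 1, and Saa1 was at 5 and 4 in WT 2 and WT 3.

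**Figure D3:**
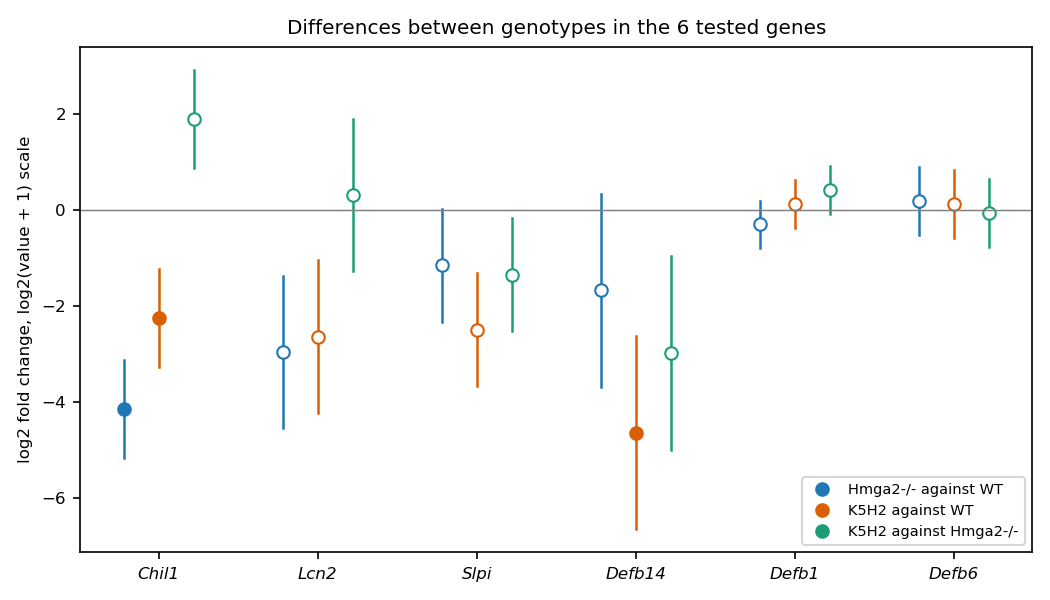
Log2 fold changes on the log2(value + 1) scale of the 6 tested genes in the 3 comparisons, with 95% intervals from limma (n = 3 per group), filled where the adjusted p is under 0.05. Chil1 is filled in both comparisons with WT and Defb14 in K5H2 against WT. Every interval of Defb1 and Defb6 includes 0, with Defb1 farthest from it in K5H2 against Hmga2-/-.

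Counted over the set, limma called 1 of the 6 tested genes in Hmga2-/- against WT, lower (2 had an unadjusted p under 0.05, as 23.7% of all tested genes did), where 0.619% of all 14695 tested genes were called lower. In K5H2 against WT it called 2 of 6 lower (4 had an unadjusted p under 0.05, as 18% of all did), where 0.626% of all tested genes were called lower and 0.653% higher. In K5H2 against Hmga2-/- it called 0 of 6 (3 had an unadjusted p under 0.05, as 21.1% of all did), where 0.136% of tested genes were called lower and 0.361% higher. The groups did not overlap, with the mutant lower, in 2 of 6 genes for Hmga2-/- and 4 of 6 for K5H2 against WT, where 14.9% and 14.1% of all tested genes behaved so. For K5H2 against Hmga2-/- Defb14 and Slpi were lower without overlap and Chil1 higher, where 12.6% and 13.8% of all tested genes were. In the authors' deposited table Lcn2 and Chil1, 2 of 7 members with an adjusted p, were lower in Hmga2-/-, where 4.62% of all its tested genes were. In K5H2 against WT 4 of 8 were lower there (Defb14, Lcn2, Slpi and Chil1), where 3.06% of all were, and in K5H2 against Hmga2-/- 1 of 7, Chil1, was higher, where 2.25% of all were. The limma F test over the 3 genotypes called Chil1 (adjusted p = 0.00681), where 1.49% of all tested genes were called, and gave adjusted p values of 0.0601 for Defb14, 0.0774 for Slpi and 0.0848 for Lcn2. The comparisons with WT share the WT animals. The members were chosen with earlier results of these data known, so these shares are descriptions and no independent support. Defb14 reached the minimum for testing through WT and Hmga2-/- libraries only, so its lower values in K5H2 are no support either. Rescaling the libraries to equal totals shifted the median of all genes by -0.16 for Hmga2-/- against WT and 0.23 for K5H2 against Hmga2-/-. Over all genes limma called 53 higher and 20 lower in K5H2 against Hmga2-/-, and 294 and 26 after that rescaling, and in K5H2 against WT 96 higher and 92 lower, and 145 and 73 after it.

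Per kb of exon, the level in WT was highest for Defb6, at 2991 normalized counts per kb, followed by Defb1 at 1245, Chil1 at 773, Lcn2 at 526, Defb14 at 292, Slpi at 154, Defb4 at 42.6 and Defb3 at 26.7. In Hmga2-/- Chil1, at 41.0 per kb, was below Lcn2, at 64.9, Defb14, at 76.8, and Slpi, at 61.3. In K5H2 Chil1, at 152, was the highest after Defb6 and Defb1, and Defb14, at 6.54, was the lowest of the tested genes. Exon length counts every annotated transcript, which lowers the value of genes with long alternative transcripts.

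Over the 9 libraries Chil1 moved most like Lcn2 among the tested members (Pearson r = 0.88 of log2 values), Defb14 most like Slpi (r = 0.89), and Defb1 most like Defb6 (r = 0.62). These are descriptions over libraries that share the genotype groups. Outside the set, the tested genes most like Chil1 were Pla2g2d, Ces2g and Zcchc24 (r from 0.98 to 0.99), those most like Lcn2 were AC140413.1, Prdx3 and Akr1b8 (0.98 to 0.99), and those most like Slpi were Gm35986, Mttp and Frrs1 (0.97 to 0.98). For Defb14 they were Rab11fip5, Rrm1 and Gm19569 (0.93 to 0.97), for Defb1 Dimt1, Orc4 and Gtf2e1 (0.92 to 0.94), and for Defb6 Ly6d, mt-Co2 and Prr15 (0.90 to 0.92).

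Genes of activated keratinocytes were examined beside the defence genes. This list was chosen with earlier results of these data known, so its shares are descriptions and no independent support. All 8 had negative log2 fold changes in both comparisons with WT (medians -3.69 and -2.53, against -0.01 and -0.02 over all tested genes, of which 50.8% and 51.9% were negative), with 6 called lower in Hmga2-/- and 2 in K5H2. Over all tested genes 0.619% and 0.626% were called lower. Krt6b, a keratin of wounded epidermis whose reads could be divided with its close copy Krt6a, was at 323404, 94151 and 240867 in the WT animals, 1331, 8108 and 2350 in the Hmga2-/- animals, and 8879, 56167 and 19194 in the K5H2 animals. Like those of Chil1 and Lcn2, and unlike those of Defb14 and Slpi, its mean was lowest in Hmga2-/-, with K5H2 between. For Lcn2 the mutant groups overlapped. S100a8, an alarmin of inflamed epidermis, was at 1347, 163 and 667 in the WT animals, 11, 33 and 19 in the Hmga2-/- animals (log2 fold change -4.71, adjusted p = 0.0326), and 42, 239 and 69 in the K5H2 animals (-2.56, adjusted p = 0.128). Stfa2, a cysteine protease inhibitor, was called in both comparisons (-6.27, adjusted p = 0.0113, and -4.11, adjusted p = 0.0385), Krt6b in Hmga2-/- (-6.05, adjusted p = 0.0113), and Sprr1b, a cornified envelope precursor, in K5H2 (-2.51, adjusted p = 0.0468). In K5H2 against Hmga2-/- limma called 0 of the 8 (4 at an unadjusted p under 0.05, where 21.1% of all tested genes were), with Krt6b at 2.85 (adjusted p = 0.113) and Krt6a at 1.61 (adjusted p = 0.160). These calls too were lost without some single libraries, in every case without WT 3, where the adjusted p was 0.0850 for Stfa2 and Krt6b and 0.150 for S100a8 in Hmga2-/-, and 0.172 for Stfa2 and 0.189 for Sprr1b in K5H2. Without WT 1 the adjusted p was 0.102 for S100a8 in Hmga2-/-, and 0.108 for Stfa2 and 0.118 for Sprr1b in K5H2, while Stfa2 and Krt6b stayed under the threshold in Hmga2-/- at 0.0411. Without Hmga2-/- 3 it was 0.0853 for Stfa2, 0.0899 for Krt6b and 0.154 for S100a8 in Hmga2-/-. The part of keratinocyte activation in the differences of the defence genes was not tested.

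**Figure D4:**
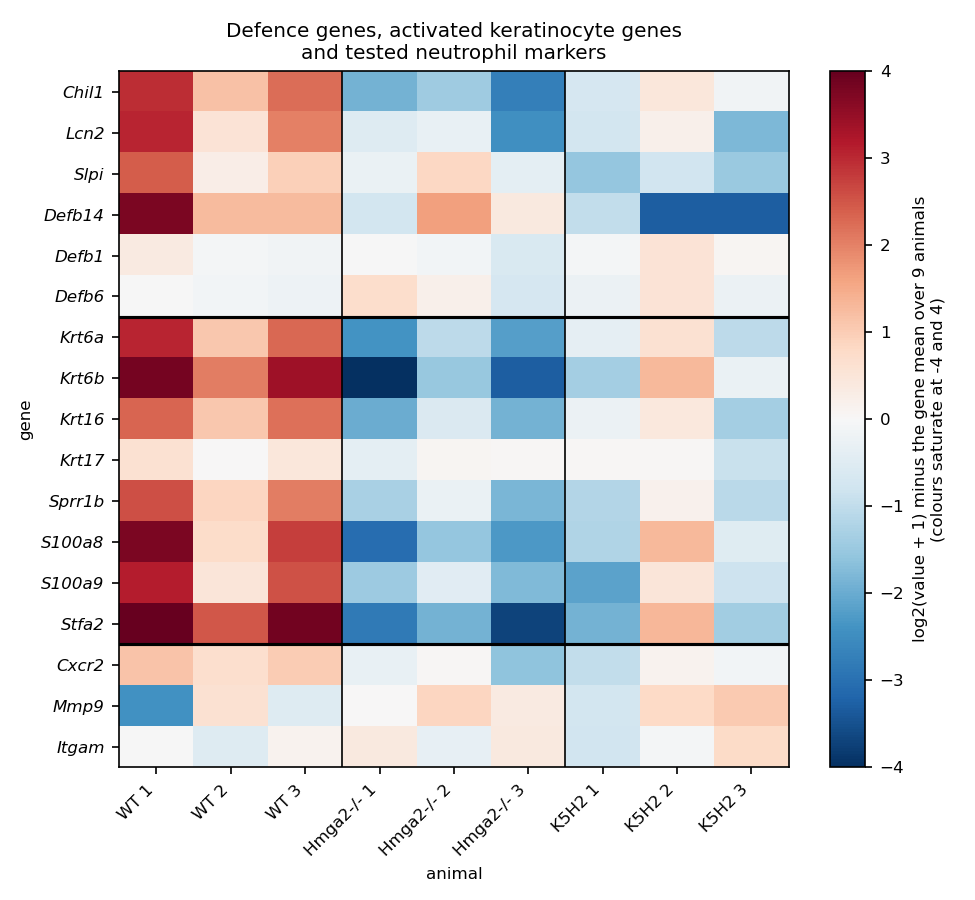
Log2(value + 1) minus each gene's mean over the 9 animals for the 6 tested defence genes, 8 genes of activated keratinocytes and the 3 tested neutrophil markers, with 1 column per animal. Chil1 and Lcn2 are highest in WT 1 and WT 3 as the 8 activated keratinocyte genes are, while Defb1 and Defb6 vary little.

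Neutrophils store Lcn2, Camp and Slpi in their granules. Of 12 neutrophil markers, Ly6g, Mmp8, Retnlg and Cd177 were at 0 in all libraries, Elane and Ngp reached at most 1, Csf3r at most 3 and Ltf at most 7. Mpo, the myeloperoxidase gene, was at 2, 0 and 1 in the WT animals, 0 in each Hmga2-/- animal, and 38, 7 and 36 in the K5H2 animals. Itgam was at 15 to 46 over the 9 libraries. Cxcr2, Mmp9 and Itgam were the 3 tested, with 0 called in any comparison (1, 1 and 0 at an unadjusted p under 0.05, where 23.7%, 18% and 21.1% of all tested genes were). The summed level was 367 to 490 in WT, 285 to 457 in Hmga2-/- and 226 to 542 in K5H2, mostly Cxcr2 and Mmp9. Cxcr2, a chemokine receptor of neutrophils, was at 303, 222 and 279 in the WT animals, 111, 142 and 44 in the Hmga2-/- animals, and 69, 153 and 127 in the K5H2 animals, below WT in every mutant animal. It had log2 differences of -1.57 (adjusted p = 0.1001) in Hmga2-/- and -1.26 (adjusted p = 0.160) in K5H2 against WT. Mmp9 and Itgam went the other way, with differences of 1.18 and 0.30 in Hmga2-/- and 1.14 and 0.12 in K5H2. Mmp9 was at 29, 244 and 113 in the WT animals, 162, 289 and 206 in the Hmga2-/- animals, and 97, 279 and 329 in the K5H2 animals. Summed markers of macrophages and Langerhans cells were 3621 to 14801 in WT, 10207 to 22572 in Hmga2-/- and 9441 to 15268 in K5H2. Those of T cells were 1377 to 4254, 3894 to 5015 and 1644 to 2375. Fibroblast markers were 37 to 96 in WT, 236 to 897 in Hmga2-/- and 192 to 3201 in K5H2, higher in every mutant animal, with Col1a2, a collagen gene, called in K5H2 against WT (3.85, adjusted p = 0.0463; 3.80, adjusted p = 0.109 without WT 1; 3.72, adjusted p = 0.182 without WT 3; 3.85, adjusted p = 0.0508 without Hmga2-/- 3) and 0 called in Hmga2-/- (4 at an unadjusted p under 0.05). Over all tested genes 0.653% were called higher in K5H2 against WT, and 23.7% had an unadjusted p under 0.05 in Hmga2-/- against WT. Sebocyte markers were 26606 to 101865 in WT, 18005 to 32313 in Hmga2-/- and 24537 to 44088 in K5H2, highest in WT 1. Melanocyte markers summed to 258 to 395, 163 to 435 and 332 to 703, while mast cell and endothelial markers summed to at most 11 and 22 in any library. The marker genes with the smallest p in Hmga2-/- against WT, none of them called, were Lor (1.76) and Krt10 (1.19) of keratinocytes, Mmp9 (1.18) beside Cxcr2, Cd68 (-1.37) and Mrc1 (-2.97) of macrophages, Thy1 (0.83) and Cd3d (1.19) of T cells, Col1a2 (3.28) and Dcn (2.17) of fibroblasts, Pecam1 (-0.24) of endothelium, Elovl3 (-2.27) and Awat1 (-1.84) of sebocytes, and Tyrp1 (-0.89) and Dct (-0.23) of melanocytes, as log2 differences with adjusted p from 0.0745 to 0.826. In K5H2 against WT they were Krt14 (-0.73), Flg (-1.27), Mmp9 (1.14), Csf1r (1.01), Cd68 (-0.997), Cd8a (-1.72), Thy1 (-0.66), Pecam1 (0.15), Elovl3 (-1.90), Awat2 (-1.77), Pmel (0.96) and Dct (0.74), with adjusted p from 0.0981 to 0.917. In K5H2 against Hmga2-/- they were Lor (-1.69), Ivl (-0.61), Cxcr2 (0.31), Itgam (-0.18), Mrc1 (1.72), H2-Ab1 (-0.51), Thy1 (-1.49), Cd8a (-2.26), Col3a1 (0.80), Col1a2 (0.57), Pecam1 (0.39), Mc5r (0.93), Scd1 (0.49), Tyrp1 (1.68) and Dct (0.97), with adjusted p from 0.0816 to 0.839. In such bulk samples fewer cells of a type and less RNA per cell cannot be told apart, and the part of these cell types in the results was not tested.

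Other secreted defence genes were examined beside the set. Of 37, 18 were tested, and in Hmga2-/- against WT limma called 0 (6 at an unadjusted p under 0.05), with negative values in 4 and a median of 0.32. In K5H2 against WT 1 of 18 was lower and 0 higher (8 at an unadjusted p under 0.05), with negative values in 10 and a median of -0.04. Over all tested genes 23.7% (Hmga2-/-) and 18% (K5H2) had an unadjusted p under 0.05, and 0.626% were called lower in K5H2. In K5H2 against Hmga2-/- limma called 1 of 18 lower and 0 higher (4 at an unadjusted p under 0.05). Of the 18, 13 were negative there, with a median of -0.35. For that comparison 0.136% of all tested genes were called lower and 21.1% had an unadjusted p under 0.05. Ang, a ribonuclease with antimicrobial activity, was the gene called, at 111, 193 and 162 in the WT animals, 198, 200 and 159 in the Hmga2-/- animals, and 31, 80 and 26 in the K5H2 animals. It was below WT by 1.89 (SE 0.39, adjusted p = 0.0493) and below Hmga2-/- by 2.17 (SE 0.39, adjusted p = 0.0434), and both calls were lost without WT 2, WT 3, K5H2 1, K5H2 3 or any 1 of the Hmga2-/- animals, and that against WT also without WT 1, with adjusted p values of up to 0.195 and 0.198. Ang is 88.0% identical to Ang2 over 902 bases, and it shares 219 exon bases with Rnase4 on the same strand. Pglyrp3, which binds bacterial peptidoglycan, was at 896, 521 and 576 in the WT animals, 324, 323 and 276 in the Hmga2-/- animals, and 218, 431 and 351 in the K5H2 animals, with log2 differences of -1.07 (adjusted p = 0.0943) and -1.01 (adjusted p = 0.0939). Wfdc3, of the whey acidic protein family to which Slpi also belongs, was at 164, 201 and 168 in the WT animals and 611, 655 and 468 in the Hmga2-/- animals (log2 fold change 1.69, adjusted p = 0.0585). In the K5H2 animals it was at 627, 494 and 201 (1.16, adjusted p = 0.128).

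Cytokines and receptors known to induce defensins were next. Of 20 tested, limma called 0 in Hmga2-/- against WT, with a median of -0.12. There 3 had an unadjusted p under 0.05, as 23.7% of all tested genes did. In K5H2 against WT it called 1 higher, where 0.653% of all were, with a median of -0.26. There 7 had an unadjusted p under 0.05, as 18% of all did. The gene called was Il1r1, the interleukin-1 receptor, at 477, 536 and 487 in the WT animals, 662, 491 and 631 in the Hmga2-/- animals, and 948, 981 and 1063 in the K5H2 animals (log2 fold change 0.99, SE 0.16, adjusted p = 0.0217). Every K5H2 animal was above the others. The call was lost without WT 1 (0.96, adjusted p = 0.0595), WT 3 (0.98, 0.129), or K5H2 1, K5H2 2 or K5H2 3 (1.03, 1.01 and 0.95, adjusted p = 0.0846, 0.0702 and 0.0754). Tlr2, a receptor for bacterial lipoproteins, was at 146, 109 and 144 in the WT animals, 46, 87 and 23 in the Hmga2-/- animals (-1.52, adjusted p = 0.104), and 43, 59 and 59 in the K5H2 animals (-1.30, adjusted p = 0.145). Il1rl2, the interleukin-36 receptor, had a difference of -0.70 (adjusted p = 0.119) in Hmga2-/- against WT, and in K5H2 against Hmga2-/- Il1r1 was at 0.76 (adjusted p = 0.0694) and Nod2, a peptidoglycan sensor, at 0.62 (adjusted p = 0.153).

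Of 19 tested adaptors and transcription factors upstream of defensins, limma called 0 in Hmga2-/- against WT, with a median of 0.05. There 6 had an unadjusted p under 0.05, as 23.7% of all tested genes did. In K5H2 against WT it called 1 higher, where 0.653% of all were, with a median of 0.10. There 5 had an unadjusted p under 0.05, as 18% of all did. Nfkbiz, an NF-κB cofactor needed for many interleukin-17 responses, rose from 1117, 715 and 674 in the WT animals to 1528, 1581 and 1763 in the K5H2 animals (log2 fold change 0.99, SE 0.21, adjusted p = 0.0486). The Hmga2-/- animals had 724, 1007 and 884. The call was lost without any 1 of the libraries other than WT 1, with adjusted p values from 0.0548 without Hmga2-/- 1 to 0.202 without WT 3. Nfkbia, the feedback inhibitor of NF-κB, was at 1583, 2659 and 2256 in the WT animals, 4004, 4634 and 4867 in the Hmga2-/- animals (1.08, adjusted p = 0.0567), and 3003, 3833 and 2323 in the K5H2 animals (0.50, adjusted p = 0.271). Cebpd, a C/EBP factor, had a difference of 0.83 (adjusted p = 0.112) in Hmga2-/- against WT. In K5H2 against Hmga2-/- Nfkbiz was at 0.91 (adjusted p = 0.0881) and Cebpb at -0.98 (adjusted p = 0.182). In K5H2 against Hmga2-/- limma called 0 genes of either list, with 5 at an unadjusted p under 0.05 in each, where 21.1% of all tested genes were.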

How the data were processed

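RNA of epidermal keratinocytes was sequenced in 9 libraries, 3 per genotype, from strand-specific libraries of polyadenylated RNA, per the labels' protocols. The submitters' processing notes name Trim Galore, STAR and DESeq2 and the build GRCm38, without versions. Per the file headers, the deposited value of a gene in a library is a normalized count; the authors rounded it to whole numbers, so it was treated as a score, not a raw count. The authors also deposited a mean over the libraries, itself a score, and for each comparison the log2 fold change, its p-value and the adjusted p-value. Members and gene lists were chosen with earlier results of these data known.

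Values were tested with limma-trend (limma 3.58.1, R 4.3.3), two-sided, on log2(value + 1), for genes at 10 or more in at least 3 libraries (14695 genes). All 9 libraries entered 1 fit with a mean per genotype. A gene was called where its p, adjusted by Benjamini-Hochberg over all tested genes, was under 0.05. Fold changes on this scale understate those of low genes. The worth of 1 read was estimated from genes present in 1 library alone, whose unrounded value the deposited mean gives. Beside the members, up to 3 called genes per list and comparison, by size of change, or the 2 with the smallest p where none was called were named. The 3 most alike genes per member were named by Pearson r. Exon lengths and transcripts came from GENCODE M21, in which the loci of all 10 members were the same as in the table, and closest copies were found with BLAST+ 2.17.0. Names of 5 list genes were matched by an older symbol. The fit was tested on simulated data. The limma p-values set a group difference against the spread between animals of a genotype, pooled over the 3 genotypes and moderated across genes.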

Additional observations from a re-analysis of the deposited data

How the results depend on the processing

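Over 18 fold changes of the tested members, 305 recomputed values kept direction and side of the threshold in 261 cases, fell short of it in 27, newly passed in 5 and changed sign in 12. The call of Chil1 in Hmga2-/- against WT held in 15 of 17 alternatives, that in K5H2 against WT in 4 of 17 and that of Defb14 in 5 of 17; where the cause is not given by fewer animals or other genes tested, it was not tested. Leaving out each animal in turn gave 1 to 482 called genes in Hmga2-/- against WT, 17 to 307 in K5H2 against WT, 19 to 213 in K5H2 against Hmga2-/- and 24 to 375 by the F test, against 107, 188, 73 and 219 with all animals; the lowest counts were without WT 3 except in K5H2 against Hmga2-/-, where it was without K5H2 3. Members called ranged from 0 to 2, 0 to 4, 0 to 0 and 1 to 3. The sign changed for Defb6 in Hmga2-/- against WT (-0.13 to 0.57), in K5H2 against Hmga2-/- (-0.44 to 0.26) and in K5H2 against WT (-0.12 to 0.27), for Defb1 in K5H2 against WT (-0.053 to 0.29) and for Lcn2 in K5H2 against Hmga2-/- (-0.36 to 0.83), none of them called. A pseudocount of 10 gave 284 called genes in K5H2 against WT. Without the filter 0 members were called in K5H2 against WT. With equal totals 193 genes were called in Hmga2-/- against WT, 320 in K5H2 against Hmga2-/- and 487 by the F test, with 1 member in K5H2 against WT, 1 in K5H2 against Hmga2-/- (Chil1, 2.13, adjusted p = 0.0471) and 2 by the F test, and Defb6 in K5H2 against Hmga2-/- turned to 0.17. Robust moderation called 1 member in K5H2 against WT. With only the groups compared, 38 genes were called in Hmga2-/- against WT and 103 in K5H2 against WT, with 0 members in the latter. Without WT 1 and Hmga2-/- 3 together, 0 genes and 0 members were called in Hmga2-/- against WT, 74 genes and 0 members in K5H2 against WT, 42 genes in K5H2 against Hmga2-/- and 66 by the F test; Defb1 in Hmga2-/- against WT turned to 0.052 and Lcn2 in K5H2 against Hmga2-/- to -0.36. With the replicate number as a block, 120 genes and 0 members were called in K5H2 against WT. Same-numbered animals of different genotypes had correlations of their deviations from -0.22 to 0.21, over 0.1 in 3 of 9 pairs, so the numbers were not taken as pairing. WT 1 did correlate best with its same-numbered animals, Hmga2-/- 1 (0.21) and K5H2 1 (0.18), while WT 2 correlated best with Hmga2-/- 3 (0.24). Alternatives for list genes were added after the data were seen, and no call among them changed sign. Depth limits Defb3, Defb4, Camp and Saa3, which lie near the value of a few reads.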

Other observations

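The whey acidic protein gene Wfdc12, a relative of Slpi, was at 109, 88 and 122 in the WT animals, 7, 20 and 5 in the Hmga2-/- animals, and 1, 41 and 15 in the K5H2 animals, without overlap between WT and either mutant group. Its log2 differences from WT were -3.41 (SE 0.92, limma adjusted p = 0.0998) and -3.27 (SE 0.92, adjusted p = 0.105). Unlike for Slpi, WT 1 did not hold its highest value. Wfdc21, of the same family, was at 58, 699 and 419 in the WT animals, 577, 1158 and 2322 in the Hmga2-/- animals, and 141, 494 and 225 in the K5H2 animals, with its lowest value in WT 1. Both mutant groups overlapped WT, with log2 differences of 2.16 (SE 0.83, limma adjusted p = 0.163) in Hmga2-/- and -0.04 (SE 0.83, adjusted p = 0.960) in K5H2. The chemokine gene Ccl20, whose product shares a receptor with β-defensins, was at 19, 81 and 69 in the WT animals, 135, 165 and 82 in the Hmga2-/- animals, and 380, 218 and 65 in the K5H2 animals. Neither difference of Ccl20 from WT was called (1.34, SE 0.66, limma adjusted p = 0.240 in Hmga2-/-, and 1.86, SE 0.66, adjusted p = 0.176 in K5H2). These genes were chosen after their values were seen.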
